A study of Homo sapiens with 4 samples.

Results

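The cyclin-dependent kinase (CDK) inhibitors and p53 target genes described here are 10 genes chosen by name: CDKN1A, CDKN1B, CDKN1C, CDKN2A, CDKN2B, MDM2, GDF15, BBC3, SESN1 and TP53I3. All 10 were found among the 25317 gene symbols of the deposited tables. Their messenger RNA was measured by RNA sequencing in MCF10A, an immortal but non-tumorigenic cell line of human breast epithelium, grown with horse serum, epidermal growth factor, cholera toxin and insulin. Every culture was infected with a lentivirus made from the pHIV-ZsGreen vector, which carried no insert (empty vector, the control), Zeb1, Snail or Ovol2, and fluorescent cells were sorted 6 days later. Zeb1 and Snail are repressors that push epithelial cells towards a mesenchymal state, and Ovol2 acts in the reverse direction. Only the factor differed between groups by label, and the promoter that drives it is not given. Each of the 4 groups is 1 library, so no difference below has a replicate check and none was tested.

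CDK inhibitors bind the kinases that carry cells through the division cycle. The Cip/Kip proteins, encoded by CDKN1A (p21), CDKN1B (p27) and CDKN1C (p57), bind cyclin-CDK complexes, while the INK4 proteins, encoded by CDKN2A (p16) and CDKN2B (p15), bind CDK4 and CDK6 directly. The tumour suppressor p53 is a transcription factor that is stabilised by DNA damage and other stress and turns on CDKN1A, the death gene BBC3 (PUMA), the stress sensor SESN1, the quinone oxidoreductase TP53I3 and MDM2, whose product marks p53 for degradation. GDF15 encodes a secreted stress cytokine that p53 and other stress pathways can induce. MCF10A cells are known for a deletion on chromosome 9 that takes in CDKN2A.

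The values are FPKM, fragments scaled to transcript length and library size. From the FPKM that 1 fragment is worth in low genes, depth was estimated at 2.91e+07 fragments in the control, 3.43e+07 with Zeb1, 3.16e+07 with Snail and 2.41e+07 with Ovol2. The transcripts of the delivered factors matched the labels: ZEB1 at 17.3 FPKM in the Zeb1 library against 0.0380 to 0.536 in the others, SNAI1 at 99.7 in the Snail library against 0.152 to 0.725, and OVOL2 at 78.3 in the Ovol2 library against 0.563 to 6.32. All 7 basal mammary epithelial markers on the list (KRT5, KRT14, KRT17, TP63, CDH3, EGFR, ITGA6) were at 1 FPKM or more in at least 1 library. They summed to 9268 FPKM in the control library, 2534 with Zeb1, 7540 with Snail and 5007 with Ovol2. KRT17 alone held 5736 FPKM of the control sum and 4624 of the Ovol2 sum, so the sums say little about the other markers. By the 2-fold rule set out below, 7 of the 7 were lower with Zeb1, 0 with Snail and 6 with Ovol2, all but KRT17. Of all kept genes 8.49%, 1.5% and 25.1% were lower in these comparisons. The markers' median log2 ratios were -1.87, -0.21 and -1.72. After the correction for transcript length described below, 7 markers were lower with Zeb1 and 3 with Ovol2. Of all genes with a length 5.78% and 7.73% were. Immune markers summed to at most 0.362 FPKM, with CD3E listed at 0 throughout, and endothelial markers to at most 1.54. Fibroblast markers summed to 3.57, 26.9, 2.94 and 0.666 FPKM in the order empty vector, Zeb1, Snail and Ovol2. COL1A1 alone held 3.49, 25.0, 2.83 and 0.583 FPKM of these sums, in the same order. COL1A2 was at 1.40 FPKM with Zeb1, and PDGFRA, PDGFRB and THY1 were at most at 0.358 in any library. In bulk RNA such as this, fewer cells of a type and less RNA per cell cannot be told apart. The part of the shift in these markers in the results below was not tested.

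Differences are given as log2 ratios of factor library over control, with 1 FPKM added to both values, which understates the difference of low genes. A gene with at least 1 FPKM in either library was kept, and it was called higher or lower where the log2 ratio was at least 1 in either direction, a 2-fold difference. Of the 10 members 8 were kept in each comparison, all of them at 1 FPKM or more in the control library. With Zeb1, 0 of the 8 members were called higher and 0 lower, where 4.52% and 8.49% of all kept genes were. With Snail, 1 was called higher (CDKN1C) and 0 lower, against 1.00% and 1.5% of all kept genes. With Ovol2, 3 were called higher (CDKN1A, CDKN1C and GDF15) and 0 lower, against 6.82% and 25.1% of all kept genes. The members' median log2 ratios were 0.16 with Zeb1, 0.20 with Snail and 0.27 with Ovol2, beside medians over all kept genes of -0.09, 0.12 and -0.51. The median over all genes was thus farthest from 0 with Ovol2. Members are also given centred, that is, less the median of genes at 5 FPKM or more in both libraries (-0.12 with Zeb1, 0.14 with Snail and -0.17 with Ovol2). The 3 comparisons share the control library, so an unusual value there would enter all of them.

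**Figure D1:**
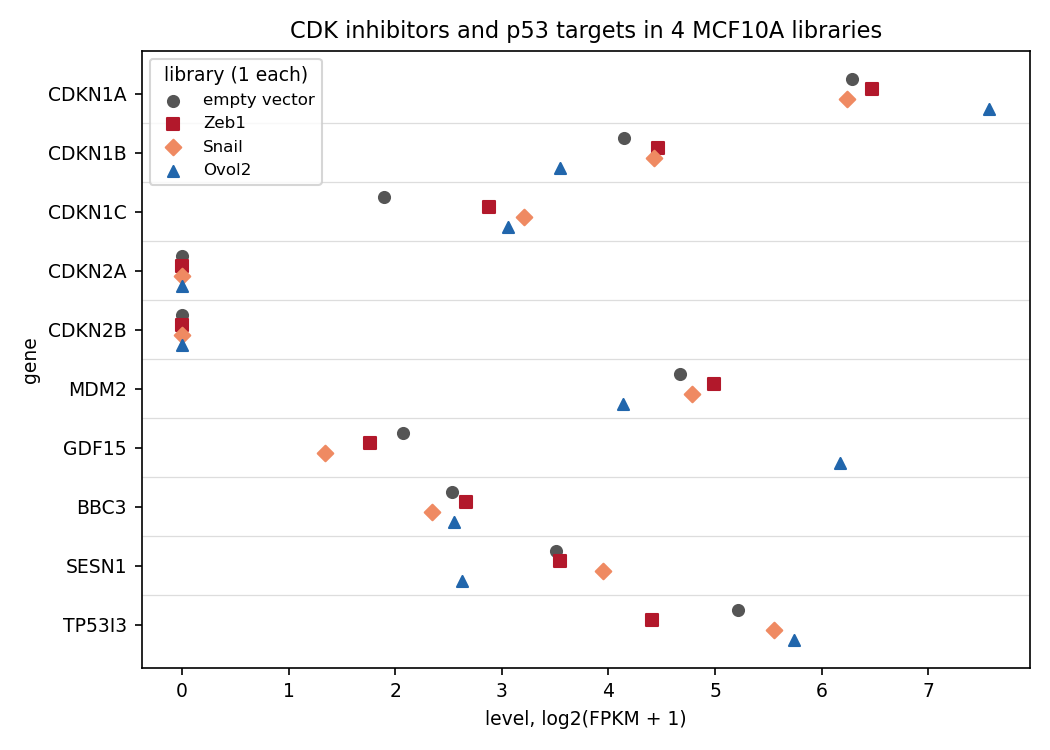
Level of the 10 members in each library, as log2(FPKM + 1) on the horizontal axis, with 1 point per library and no error bars because each group is 1 library. GDF15 and CDKN1A lie farthest to the right in the Ovol2 library, and CDKN2A and CDKN2B lie at 0 in all 4 libraries.

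Among the Cip/Kip inhibitors, the 3 genes had 3 different patterns. CDKN1A, the p21 gene and the best known p53 target, was at 77.1 FPKM in the control library, 87.6 with Zeb1, 74.7 with Snail and 189.5 with Ovol2. The Ovol2 library alone was high, and the other 3 lay close together. The log2 ratios were 0.18 with Zeb1, -0.04 with Snail and 1.29 with Ovol2, the last at percentile 95.9 of all kept genes. The plain Ovol2 ratio was 2.46, with an interval of 2.38 to 2.54 at 95% that covers counting error only and rests on estimated fragment numbers. Centring gave 1.46 for Ovol2.

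CDKN1B, the p27 gene, went the other way on the same scale. It was at 16.7, 21.1, 20.5 and 10.7 FPKM in the control, Zeb1, Snail and Ovol2 libraries, so Ovol2 was lowest and both libraries with a mesenchymal factor were above the control. None of its log2 ratios (0.32, 0.28 and -0.60) reached 2-fold. In the Ovol2 library its ratio stood at percentile 45.5, near the middle of all kept genes, and it came to -0.43 after centring.

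CDKN1C, the p57 gene, lies in an imprinted cluster on chromosome 11 and was the lowest of the 3 in the control library. It was at 2.73 FPKM there, 6.36 with Zeb1, 8.22 with Snail and 7.31 with Ovol2. All 3 factor libraries were above the control and close to each other. The log2 ratios were 0.98 with Zeb1, just under the 2-fold rule, 1.31 with Snail, at percentile 99.6 of kept genes, and 1.16 with Ovol2. The plain ratios were 2.33 (counting interval 1.93 to 2.81), 3.01 (2.51 to 3.63) and 2.68 (2.21 to 3.26), and all 3 rest on about 154 fragments in the 1 empty vector library. The Zeb1 ratio was 1.10 after centring and so passed the rule. The Ovol2 ratio was 0.96 and missed it when libraries were set to the same total without RMRP and RPPH1, a pair of abundant non-coding RNAs. These 2 genes held 24.6%, 22.1%, 18.7% and 40.6% of all FPKM in the control, Zeb1, Snail and Ovol2 libraries.

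Some neighbours of CDKN1C were also above the control in all 3 factor libraries and others were not. SLC22A18AS, a low non-coding RNA next to it that overlaps SLC22A18 in antisense, was at 0.158, 0.583, 0.492 and 0.479 FPKM in the control, Zeb1, Snail and Ovol2 libraries, under the 1 FPKM filter throughout, and without a stated strand setting the pair cannot be told apart. PHLDA2, an imprinted growth regulator of the same cluster, was at 7.12, 4.12, 5.24 and 26.7 FPKM in the control, Zeb1, Snail and Ovol2 libraries, higher only with Ovol2 (log2 ratio 1.77). SLC22A18 was at 0.918, 1.83, 1.17 and 2.89 FPKM, above the control in all 3 and past 2-fold with Ovol2 (1.02). As it was under 1 FPKM in the control, it was kept only through the factor libraries. H19, an imprinted non-coding RNA of the neighbouring cluster, was at 1.18, 1.73, 2.43 and 0.969 FPKM, highest with Snail (0.65). NAP1L4, at the edge of the cluster, was at 34.4, 24.4, 34.4 and 17.5 FPKM. KCNQ1OT1, the non-coding RNA of the cluster, stayed between 0.193 and 0.843 FPKM.

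Both INK4 members were listed at 0 in all 4 libraries. In RefSeq gene order along chromosome 9, the stretch MTAP, CDKN2A-AS1, CDKN2A, CDKN2B-AS1 and CDKN2B was at or near 0 throughout. MTAP, an enzyme of methionine salvage, was listed at 0 in the control and Snail libraries, at 0.00592 FPKM in the Zeb1 and at 0.0110 in the Ovol2 library. Beyond this stretch signal was uneven. The interferon genes IFNA13, IFNA2 and IFNA8 on one side were also listed at 0 in all 4 libraries, and the non-coding LINC01239 on the other was between 0.00924 and 0.0742 FPKM. IFNE, next to MTAP, was at 0.493, 1.26, 0.537 and 0.0281 FPKM in the control, Zeb1, Snail and Ovol2 libraries, and the long non-coding RNA MIR31HG beyond it was at 1.91, 3.32, 2.75 and 0.683. On the other side DMRTA1 was at 0.470, 0.383, 0.543 and 1.05 FPKM. Farther out, KLHL9, a ubiquitin ligase adaptor, was at 4.65, 7.67, 7.44 and 1.31, and ELAVL2, an RNA-binding protein gene, at 4.98, 2.65, 4.18 and 0.449.

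A listed 0 need not mean absent RNA in these tables. RPL13A, a ribosomal protein gene that all cells use, was listed at 0.0254, 0, 0 and 0.207 FPKM in the control, Zeb1, Snail and Ovol2 libraries. No ratio was therefore formed for CDKN2A or CDKN2B. The remaining INK4 genes were detected at low levels, CDKN2C (p18) at 1.87, 3.22, 2.13 and 2.49 FPKM and CDKN2D (p19) at 2.41, 3.19, 1.95 and 2.91. Neither passed 2-fold in any comparison.

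**Figure D2:**
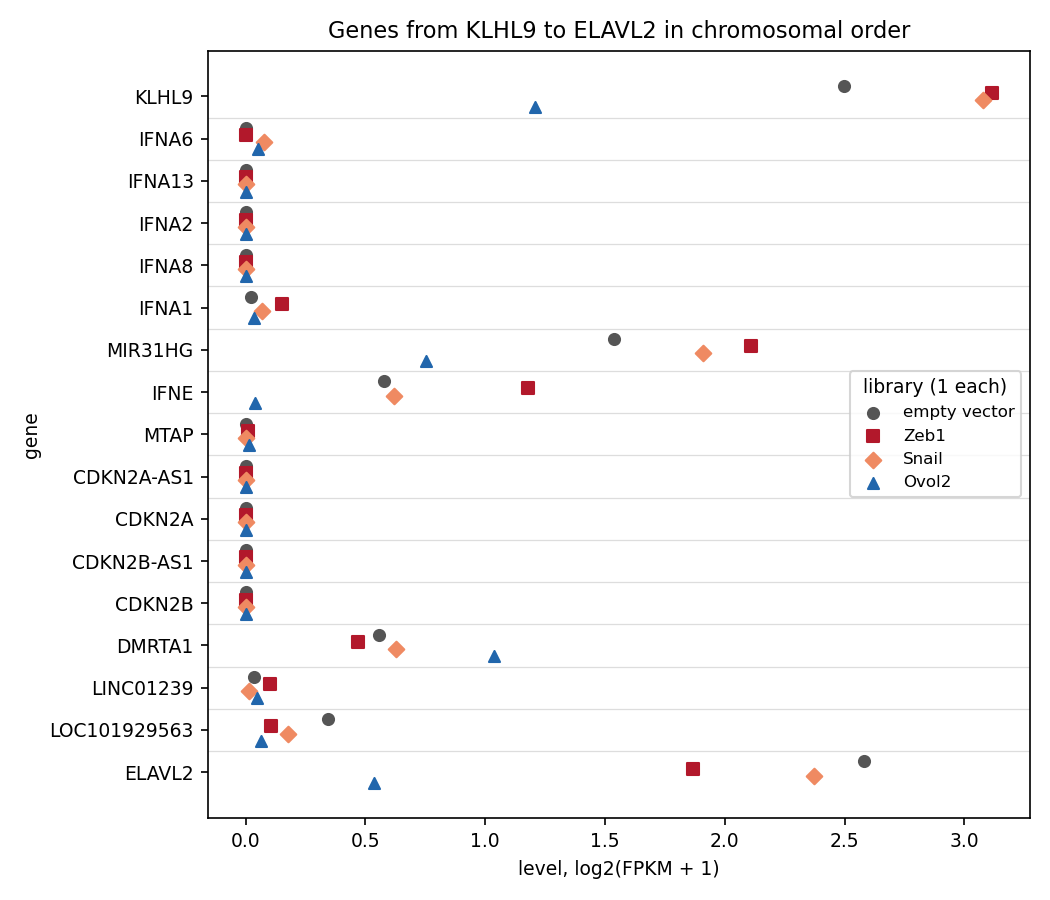
Level of genes around CDKN2A and CDKN2B in chromosomal order from KLHL9 (top) to ELAVL2 (bottom), as log2(FPKM + 1), with 1 point per library. The 5 genes from MTAP to CDKN2B lie at or near 0 in all 4 libraries, while MIR31HG and DMRTA1 on either side lie above 0 in all 4, IFNE is near 0 with Ovol2 alone, and IFNA13, IFNA2 and IFNA8 farther up are at 0 as well.

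GDF15 had the largest difference of all members. It was at 3.20 FPKM in the control library, 2.39 with Zeb1, 1.54 with Snail and 71.0 with Ovol2. Ovol2 stood far above the other 3 libraries, and both mesenchymal factors lay below the control. The log2 ratio with Ovol2 was 4.10 (4.27 centred), at percentile 99.5 of kept genes. The plain ratio was 22.2, with a counting interval of 18.3 to 27.0. With Snail the log2 ratio was -0.73, at percentile 2.98 of kept genes and short of 2-fold, although the plain ratio was 0.481 (0.341 to 0.661), from about 58 fragments against 112. With Zeb1 it was -0.31, with a plain ratio of 0.746 (0.560 to 0.982).

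GDF15 is also a target of the ATF4 branch of the stress response, and the 7 genes listed for that branch did not move together. With Ovol2, 2 of 7 kept genes were called higher and 1 lower, with a median of -0.40. Of all kept genes 6.82% were higher and 25.1% lower, with a median of -0.51. The higher ones were DDIT3, the stress factor CHOP, at 11.5 against 4.66 FPKM (1.14), and CHAC1, a glutathione-degrading enzyme, at 1.31 against 0.119 FPKM (1.05). CHAC1 was under 1 FPKM in the control and was kept only through its Ovol2 value, so its call could go in no other direction. The lower one was ATF3, a stress-induced factor, at 8.93 against 56.0 FPKM (-2.52). ATF4 itself was at 107, 130, 118 and 67.5 FPKM in the control, Zeb1, Snail and Ovol2 libraries. In the Zeb1 library 1 of 6 kept genes was lower, TRIB3 (-1.16), where 8.49% of all kept genes were. After correction for length TRIB3 was at -0.99 there and missed 2-fold. In the Snail library 0 of 6 passed in either direction, where 1.00% of all kept genes were higher and 1.5% lower.

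The other p53 targets among the members did not pass the 2-fold rule in any comparison. MDM2 was at 24.5, 30.8, 26.5 and 16.6 FPKM in the control, Zeb1, Snail and Ovol2 libraries, with log2 ratios of 0.32, 0.11 and -0.53. SESN1 was at 10.4, 10.7, 14.4 and 5.17 FPKM. Its Ovol2 ratio of -0.88 (0.498 as a plain ratio, counting interval 0.445 to 0.557) was the lowest of the members there. The Ovol2 library was the lowest of the 4 for both genes. TP53I3 had its lowest value in the Zeb1 library, with 36.1, 20.3, 45.9 and 52.3 FPKM and log2 ratios of -0.80, 0.34 and 0.52. Its plain Zeb1 ratio was 0.561, with a counting interval of 0.524 to 0.601. BBC3 was nearly level at 4.79, 5.35, 4.08 and 4.85 FPKM (0.13, -0.19 and 0.01), and each of its counting intervals took in a ratio of 1. In the Ovol2 library, CDKN1A and GDF15 were called higher and TP53I3 was above the control without a call. There MDM2 and SESN1 were below the control and BBC3 was level with it. The median over all kept genes was -0.51 with Ovol2. Among them the ratio stood at percentile 48.7 for MDM2, 30.7 for SESN1, 72.4 for BBC3 and 86.0 for TP53I3.

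The Ovol2 ratios also moved with transcript length. Across kept genes Spearman's rho of log2 ratio with length was -0.49 for Ovol2, 0.32 for Zeb1 and 0.30 for Snail, where genes are not independent replicates and all share the same 2 libraries. After removal of this trend the Ovol2 ratios were 1.52 for CDKN1A, 1.20 for CDKN1C and 3.78 for GDF15. MDM2 went from -0.53 to 0.55, so its direction in the Ovol2 library turned with this correction. That value uses the longest annotated MDM2 transcript, 12633 bases, which may not be the one the authors used. SESN1 went from -0.88 to -0.24. With Zeb1 the correction turned GDF15 from -0.31 to 0.07 and took MDM2 from 0.32 to 0.06. With Snail MDM2 turned from 0.11 to -0.11, and also to -0.03 after centring and -0.04 after upper quartile scaling. BBC3 with Ovol2 went from 0.01 to -0.17 with equal totals without RMRP and RPPH1.

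**Figure D3:**
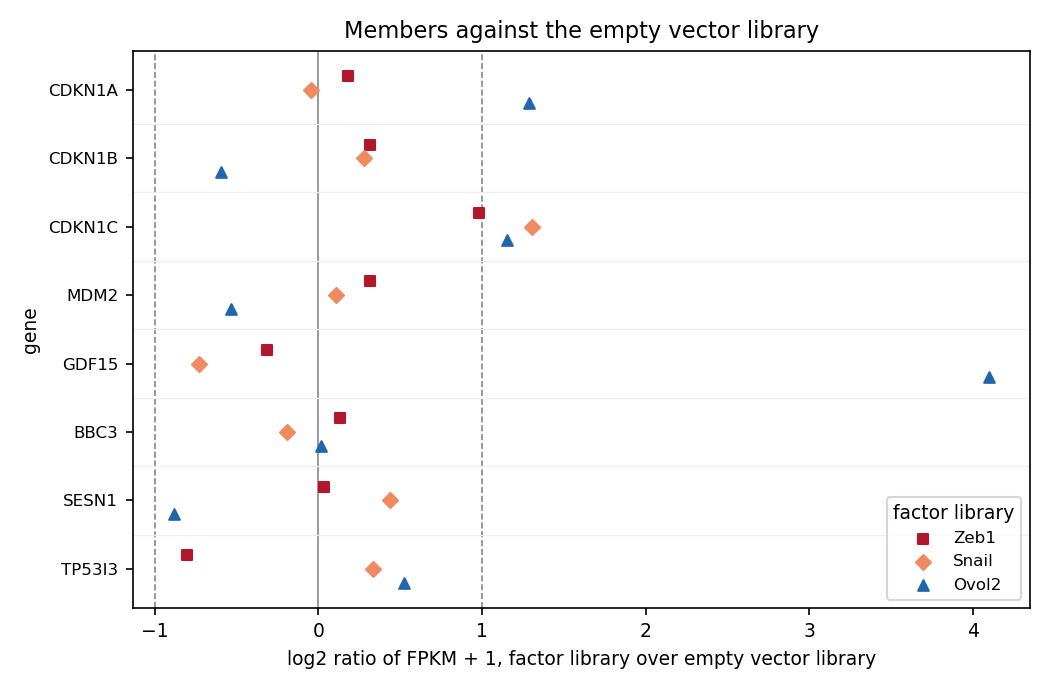
Log2 ratio of FPKM + 1, each factor over the control, for the 8 kept members, 1 point per comparison, with the 2-fold rule as dashed lines. With Ovol2, CDKN1A, CDKN1C and GDF15 lie beyond the right-hand line, and no member lies beyond the left-hand one in any comparison.

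Promoter sequence is shown for the member that differed most, GDF15, and for the only 2 members with an exact match to a searched motif. The sequences are from RefSeq (GRCh38.p14), which held promoters for 9 of the 10 members under 15 start sites, and CDKN1C was not among them. Each run is the 250 bases before a start site, 5′ to 3′ on the gene's strand, in lower case with matches in capitals. The GDF15 run is chr19:18385908-18386157 (plus strand), the MDM2 run chr12:68808767-68809016 (plus strand, an internal start site), and the SESN1 run chr6:109008989-109009238 (minus strand).
GDF15: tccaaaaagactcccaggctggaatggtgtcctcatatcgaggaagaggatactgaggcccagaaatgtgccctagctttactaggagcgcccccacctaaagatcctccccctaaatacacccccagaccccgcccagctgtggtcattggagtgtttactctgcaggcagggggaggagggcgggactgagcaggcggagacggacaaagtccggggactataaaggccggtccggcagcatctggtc
MDM2: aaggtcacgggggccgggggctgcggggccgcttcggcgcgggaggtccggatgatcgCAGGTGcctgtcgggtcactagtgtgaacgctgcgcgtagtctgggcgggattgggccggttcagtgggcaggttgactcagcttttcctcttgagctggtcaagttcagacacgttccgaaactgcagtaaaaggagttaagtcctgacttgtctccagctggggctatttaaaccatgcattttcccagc
SESN1: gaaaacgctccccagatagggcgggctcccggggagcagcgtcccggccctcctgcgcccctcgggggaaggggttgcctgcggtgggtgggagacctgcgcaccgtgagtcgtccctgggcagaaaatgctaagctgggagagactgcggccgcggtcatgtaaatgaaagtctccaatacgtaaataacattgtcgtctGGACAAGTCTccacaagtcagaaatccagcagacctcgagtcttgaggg

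The motifs, searched on both strands, were CAGGTG, the E-box bound by ZEB and SNAIL factors, CCGTTA, the core bound by OVOL factors, and the p53 half-site. No match overlapped another. CAGGTG was found in the MDM2 run above, 192 bases before the start, and in a second MDM2 run that covers almost the same bases. It occurred in 17.5% of all 35116 promoters of this length. An exact match to the p53 half-site was found once, in the SESN1 run, 49 bases before the start, and in 5.57% of all promoters. Half-sites with a mismatch were not counted, and bases farther from a start site were not searched. The lack of a match, in MDM2 or CDKN1A for example, therefore does not show that a gene lacks a p53 site. CCGTTA was found in 0 of the 15 member promoters and in 2.45% of all. The GDF15 and CDKN1A runs held no exact match to any of the 3 motifs. A match describes letters only, and no binding was measured.

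A wider set of 28 p53 targets outside the members was followed in the same way, and all 28 were kept in each comparison. With Ovol2, 2 were called higher, near the share of 6.82% over all kept genes, and 11 lower (median -0.67). The 2 higher were PERP, a desmosomal protein linked to cell death, at 855 against 311 FPKM (1.45), and SFN, the 14-3-3 sigma cell cycle brake, at 608 against 248 (1.29). The lowest were the growth arrest gene GADD45A at 19.03 against 91.2 FPKM (-2.20), the death receptor FAS at 1.63 against 11.1 (-2.20), the ribonucleotide reductase subunit RRM2B at 1.31 against 9.06 (-2.12) and the DNA damage sensor XPC at 2.53 against 13.3 (-2.01). Lower values were common in this library, 25.1% of kept genes against 11 of 28 here. After correction for length, which 27 of the 28 allowed, 4 were higher and 5 lower (median -0.10), where 9.39% and 7.73% of all genes with a length were.

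With Zeb1, 3 of the 28 were called higher and 6 lower (median -0.21), where 4.52% and 8.49% of all kept genes were. With equal totals without RMRP and RPPH1 the counts were 4 higher and 2 lower, where 8.44% and 5.07% of all kept genes were. The higher ones were RRM2B at 26.8 against 9.06 FPKM (1.47), the RNA-binding protein gene ZMAT3 at 34.9 against 14.5 (1.22) and the receptor gene EDA2R at 5.32 against 1.86 (1.14). SFN was at 35.1 against 248 FPKM (-2.79) and PERP at 91.6 against 311 (-1.75), and the kinase gene PLK3 was at 5.09 against 13.6 (-1.26). SFN and PERP are also genes of stratified epithelium. With Ovol2 they were called higher, while RRM2B, ZMAT3 and EDA2R were called lower. GADD45A was called lower with both factors. After correction for length ZMAT3 with Zeb1 was at 0.98 and missed 2-fold. So did GADD45A with Zeb1 (-0.79), and ZMAT3 (-0.88) and EDA2R (-0.41) with Ovol2. With Snail, where 1.00% of all kept genes were higher and 1.5% lower, 0 of 28 were higher and 1 lower. The lower one was the death gene PMAIP1 (NOXA) at 2.26 against 7.17 FPKM (-1.33). After centring 2 were lower, with SFN at -1.10, where 2.16% of all kept genes were lower.

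**Figure D4:**
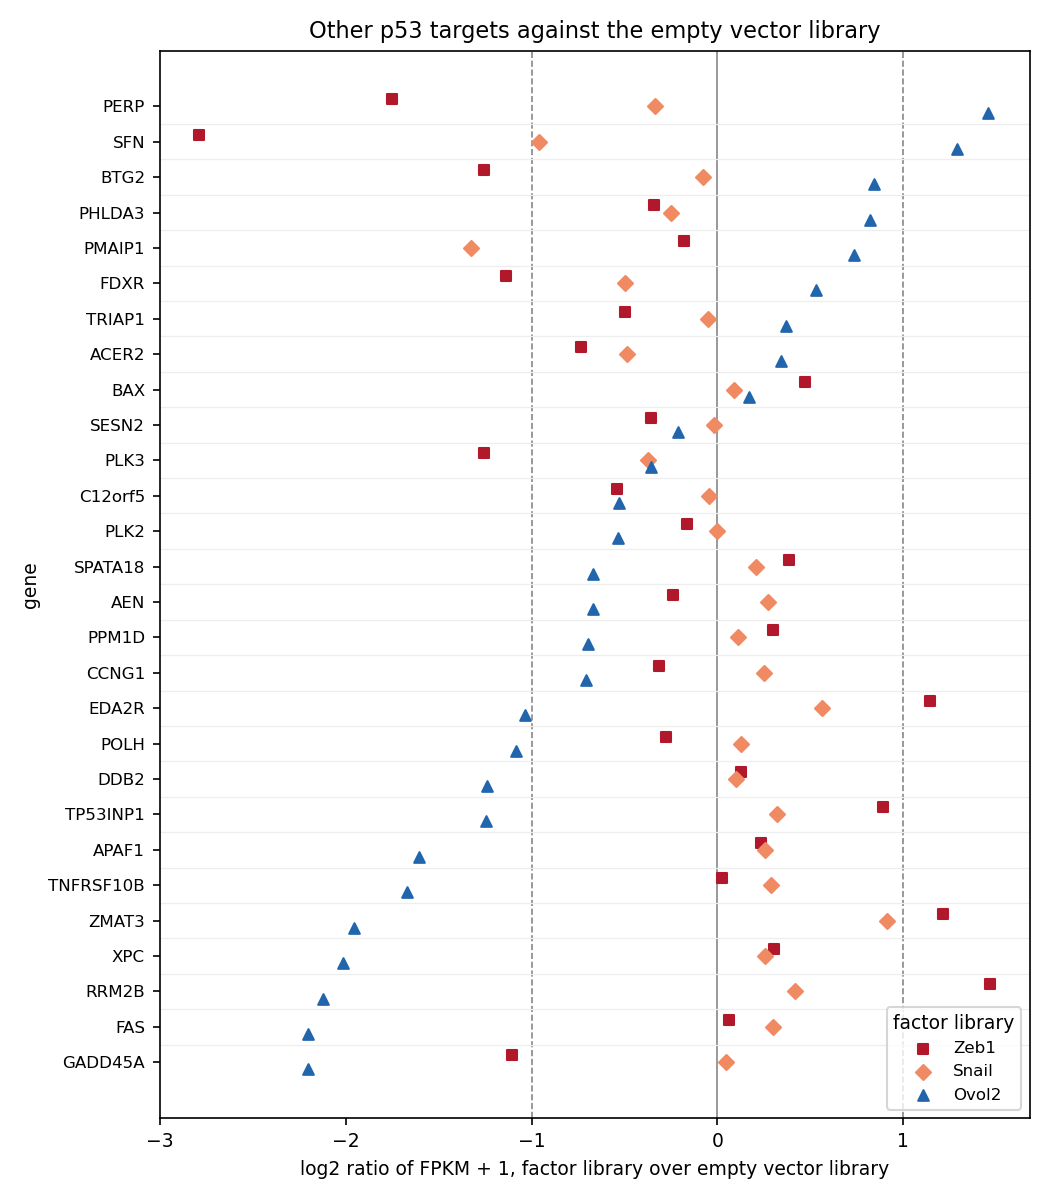
Log2 ratio of FPKM + 1 over the control library for 28 further p53 targets, ordered by the Ovol2 value, with the 2-fold rule as dashed lines and 1 point per comparison. Ovol2 points run from -2.20 to 1.45. PERP and SFN lie beyond the left-hand line with Zeb1 and the right-hand line with Ovol2, and ZMAT3, RRM2B and EDA2R the reverse. GADD45A lies beyond the left-hand line with both.

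TP63, a p53 relative of basal epithelium, was at 23.9, 4.06, 15.7 and 8.23 FPKM in the control, Zeb1, Snail and Ovol2 libraries, with log2 ratios of -2.30, -0.58 and -1.43. The list of p53 relatives and regulators had 11 kept genes. With Zeb1, 1 was higher and 1 lower (median -0.01), where 4.52% and 8.49% of all kept genes were. With Snail 0 passed (median 0.12), where 1.00% of all kept genes were higher and 1.5% lower. With Ovol2, 8 were lower and 0 higher (median -1.09). Of all kept genes 25.1% were lower and 6.82% higher there, with a median of -0.51. The 8 became 5 after centring and 4 after upper quartile scaling, where 18.3% and 16.2% of all kept genes were lower. With Zeb1 the higher one was HIPK2, a kinase of p53, at 15.3 against 4.03 FPKM (1.70). With Ovol2 the damage kinases ATM, at 0.334 against 7.001 FPKM (-2.58), and ATR, at 2.04 against 6.64 (-1.33), were lower, as was MDM4, a p53 inhibitor, at 0.638 against 3.003 (-1.29). These transcripts are long, and after correction for length, with 10 genes left, 1 was lower with Ovol2 (median -0.17). Of all genes with a length 7.73% were lower.

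A list of cyclins, CDKs, pocket proteins and other growth and cell cycle genes (MYC, SKP2, CKS1B, CDC25A, E2F1 and E2F4) had 19 kept genes. Of these, 2 were lower and 0 higher with Zeb1 (median -0.50), against 8.49% of all kept genes lower. The number lower was 4 with a pseudocount of 0.5, 6 with 0.1 and 8 at a 1.5-fold rule. The share of all kept genes lower also rose, to 10.9%, 12.9% and 21.3% at these settings. The 2 were the growth factor-induced MYC at 65.3 against 211 FPKM (-1.67) and the cyclin D1 gene CCND1. CCND1 was at 21.2, 6.17, 22.3 and 19.9 FPKM in the control, Zeb1, Snail and Ovol2 libraries, low with Zeb1 (-1.63) and level in the others (0.07 and -0.09). With Snail 0 of 19 passed (median 0.17), where 1.00% of all kept genes were higher and 1.5% lower. With Ovol2, 6 were lower and 0 higher (median -0.61), near the 25.1% lower and the median of -0.51 over all kept genes. The lowest were SKP2, which targets p27 for degradation, at 2.92 against 12.7 FPKM (-1.81), CDK6 at 6.18 against 18.9 (-1.47), and the pocket protein genes RBL2 (-1.32) and RB1 (-1.07). The Ovol2 count was 3 lower and 1 higher after centring and 2 lower and 1 higher after correction for length. After the latter the 2 lower were SKP2 (-1.14) and CKS1B (-1.09), while CDK6 (-0.38), RBL2 (-0.48) and RB1 (-0.24) missed 2-fold. Of all kept genes 18.3% were lower and 8.91% higher after centring. Of all genes with a length 7.73% were lower and 9.39% higher after the correction. In the Zeb1 library, CCND1 and MYC were thus lower while CDKN1A (0.18) and CDKN1B (0.32) were within 2-fold of the control. MYC was lower with Ovol2 as well, at 101 FPKM (-1.05).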

How the data were processed

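RNA was measured in 4 libraries, 1 per group, and grouped by the lentivirus given in the labels. The authors deposited 3 tables that each set the empty vector beside 1 factor. Values were taken as FPKM because TopHat, Cufflinks, Cuffdiff and hg19 are named per the submitters' processing notes and no header names a unit. Versions, annotation, strand setting and scaling between libraries are not given in the sources used here. Empty vector values were identical in the 3 tables, so libraries were compared directly. The deposited p-values compare 1 library with 1 library and were not used.

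Repeated symbols (43 rows) were summed. Log2 ratios used a pseudocount of 1 FPKM, a filter of 1 FPKM in either library and a 2-fold rule in place of a test. Fragment numbers and their 95% exact binomial intervals (Clopper-Pearson) came from estimated depth and the longest GENCODE v29 transcript, cover counting error only and are approximate. Lengths were matched for 22733 symbols (89.8%). Members and lists were chosen with earlier results of these data known. The named genes were all members, the delivered factors, TP63, MTAP and CCND1, and up to 4 genes past 2-fold per list and comparison, by size of ratio. Other genes were named after their values were seen. These were EDA2R, ZMAT3 and GADD45A with Zeb1, and PERP, SFN, MYC, EDA2R, ZMAT3, TRIB3 and CKS1B with Ovol2. They also took in the genes flanking CDKN2A and CDKN1C that did not pass 2-fold, ATF4, CDKN2C, CDKN2D, KRT17, RPL13A and the fibroblast markers. A planned comparison of protein sequences was not run, and 1 planned gene is not reported here and was left out of its list. Calculations were tested on simulated data and used Python 3.11.15, pandas 2.3.3, numpy 2.4.6 and scipy 1.17.1.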

Additional observations from a re-analysis of the deposited data

How the results depend on the processing

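No paired analysis was possible because each group has 1 library, and for the same reason no replicate could be left out. A planned correction with transcript lengths from the tables was not run, since the tables give none, and GENCODE lengths took its place. For Zeb1 the number of members past 2-fold went from 0 to 1, CDKN1C, with a pseudocount of 0.1 or 0.5, with centring, with upper quartile scaling, with equal totals without RMRP and RPPH1 and with this correction for length, which was chosen after the data were seen, and to 2 at a 1.5-fold rule, which added TP53I3. Of all kept genes, 5.60% to 8.44% were higher with Zeb1 under these settings before the 1.5-fold rule. At 1.5-fold, 12.3% were higher and 21.3% lower. For Snail the number of members went from 1 to 2 with a pseudocount of 0.1 and at a 1.5-fold rule, which each added GDF15 as lower. At these settings 3.10% and 4.36% of all kept genes were lower. For Ovol2 the number of members went from 3 to 5 at a 1.5-fold rule, which added CDKN1B and SESN1 as lower. There 46.1% of all kept genes were lower and 12.7% higher. Equal totals without RMRP and RPPH1 kept the number at 3 but replaced CDKN1C by SESN1 as lower (-1.07), where 32.1% of all kept genes were lower. No called member changed direction. Over the alternatives the Ovol2 ratio lay between 3.78 and 4.45 for GDF15 and between 1.06 and 1.64 for CDKN1A, and the Snail ratio of CDKN1C lay between 1.17 and 1.56. Of the 28 other p53 targets, 7 were lower and 5 higher with Ovol2 after upper quartile scaling, where 16.2% and 11.2% of all kept genes were. With equal totals without RMRP and RPPH1, 2 of the 28 were lower with Zeb1, where 5.07% of all kept genes were. Of all called genes, 34.8% were higher with Zeb1 as reported, 48.1% after centring and 62.4% with equal totals without RMRP and RPPH1, and for Ovol2 these shares were 21.4%, 32.8% and 13.1%, with 40.9% after upper quartile scaling and 54.8% after correction for length. For Snail they were 40.1% as reported and 23.7% after centring.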
